A study of Sus scrofa with 4 samples.

Results

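Gene expression in a pig kidney 6 weeks after transplantation into a non-human primate was set against that of an untransplanted kidney of the same genotype, called CD39/CD46/CD55/TBM here. The donor pigs lacked GalT, the enzyme that builds the alpha-Gal antigen, and had human CD39, CD46, CD55 and thrombomodulin (TBM) added. The untransplanted kidney carried all of these edits too, so no unmodified pig serves as a control for them. CD39 removes ATP and ADP outside cells, thrombomodulin turns thrombin towards the protein C pathway, and the other two limit complement on the cell surface. The sources used here do not say which promoters drive the transgenes, how many animals or clones stand behind a genotype, or whether both kidneys came from 1 animal. Each side was 1 library, so no difference has a replicate check, and intervals cover counting error only. Genes were taken into the description when their symbol had at least 10 counts in either library, which held for 17386 of 26466 symbols. Of the 9080 symbols left out, 4072 had no count in either library. At the limit itself, 235 symbols had a maximum of exactly 10 counts and were kept, and 292 had a maximum of 9 and were not. A second pair of libraries was used for comparison only. It holds a kidney 4 weeks after transplantation and an untransplanted one from pigs lacking GalT and carrying human CD39 and CD55, called CD39/CD55 here.

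The kidney filters blood in the glomerulus, behind the slit membranes of podocytes, and recovers most of the filtrate in the proximal tubule. Proximal tubule cells carry dense arrays of sodium-coupled transporters in their brush border, run on fatty acids and mitochondrial respiration, make glucose and break down amino acids, creatine precursors and drugs. After injury, surviving tubule cells are known to lose part of this programme and to take up developmental and wound genes, among them SOX9, vimentin, osteopontin and clusterin.

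The untransplanted library had 13226372 counts on 21200 symbols and the transplanted library 10346863 on 21392. A floor of 3 counts, the limit that a count of 0 allows, stands for 0.237 and 0.29 scaled CPM, in the same order. Scaled CPM are counts put on 1 common library size after the TMM method of edgeR, which assumes that most genes do not differ. Loci of ribosomal RNA took 12.6% of counts in the untransplanted kidney and 18.9% in the graft, and mitochondrially encoded genes held 1984457 and 1307550 counts. The ribosomal loci hold near-equal counts and may share reads, so the library totals may be too high. The tissue label was met by its markers: all 43 proximal tubule markers that are in the files were above the count minimum, and the thick ascending limb marker UMOD (uromodulin) stood at 15092 and 2214 counts. Skeletal muscle markers (at most 7 counts) were not. No gene of the Y-linked marker list was in the files under its symbol, but 26 described genes are placed on chromosome Y by RefSeq, of which 9 were called higher and 2 lower (median 0.84).

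A gene was called higher or lower in the graft when the ratio of scaled counts was at least 2-fold and its exact 95% counting interval excluded 1. By this rule 2849 genes were called higher (16.4%) and 2928 lower (16.8%). These shares are the background for the calls of this pair in every list and family below. The log2 ratio lay within 1 of zero for 64.9% of genes, and its 5th and 95th percentiles were -2.21 and 1.98. At 4-fold or more, 846 called genes were higher and 1070 lower, and at 32-fold or more 53 and 80. A further 330 genes were at least 2-fold apart with an interval that included 1. The threshold cuts through a continuous spread: 1478 genes had a log2 ratio between 0.9 and 1.1 in size, and 610 of them were called. In terms of RNA, the genes called lower took 20.7% of counts in the untransplanted kidney and 5.9% in the graft. The genes called higher took 4.41% and 14.9%.

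**Figure D1:**
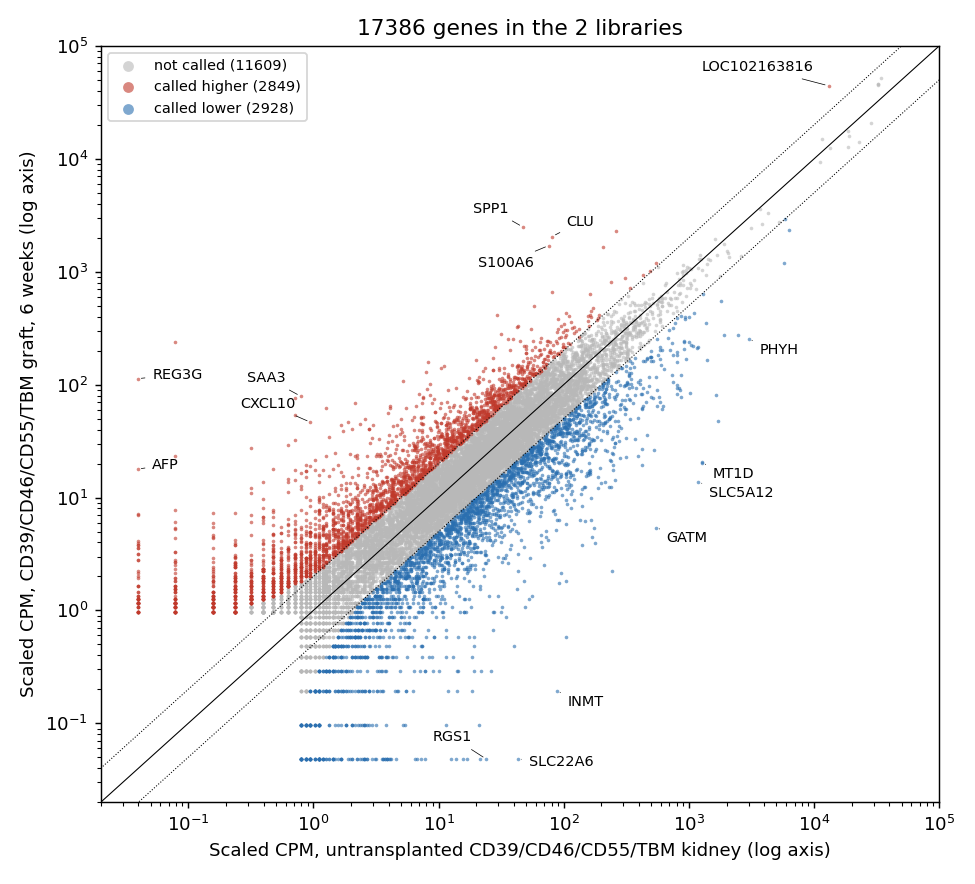
Scaled CPM of each of the 17386 genes in the untransplanted kidney (x) and the graft (y), both on log axes, with genes of no count drawn at 0.5 counts; the solid line marks equality and the dotted lines 2-fold. Red points are the 2849 genes called higher and blue points the 2928 called lower, with SPP1, CLU and S100A6 high on the upper side and SLC5A12, GATM and INMT far below the line.

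Among genes with symbols other than provisional LOC ones, those whose interval stood farthest above equality included several secreted and small proteins. REG3G, a secreted antimicrobial lectin (chromosome 3, 64847629 to 64850365, Sscrofa11.1), had no count in the untransplanted kidney and 1170 in the graft, at least 477-fold higher. SPP1, which encodes osteopontin, had 597 and 25798 counts, a log2 ratio of 5.72 (95% counting interval 5.61 to 5.84). CLU, which encodes the chaperone clusterin, had 1025 and 21240 counts (4.66, 4.57 to 4.76). All of these were secreted products that were scarce or moderate in the untransplanted kidney. S100A6 and S100A2, small calcium-binding proteins, had 963 and 17672 and 9 and 789 counts. The acute phase genes SAA3 and HP (haptoglobin) had 10 and 819 and 9 and 554. AFP, alpha-fetoprotein of fetal liver, had 0 and 185 counts, at least 75.4-fold higher, and the RNA-editing enzyme gene APOBEC1 0 and 73, at least 29.8-fold higher. Thus some genes known from liver and gut epithelium stood among the extremes, at counts well above the floor in the graft. Others went the opposite way, as the hepatocyte gene TTR was among the lowest (215 and none). The hepatocyte list summed to 2753 and 2324 counts. CXCL10, an interferon-induced chemokine, had 12 and 481 counts, and the beta-defensin gene DEFB115 9 and 335. PLXNC1, a semaphorin receptor, had 66 and 1124, and GRIN2A, a glutamate receptor subunit, 24 and 485. C7H6orf222 (4 and 284) and MRO (6 and 185) completed the 15 genes. All 15 also had a positive log2 ratio in the CD39/CD55 pair, from 1.34 for PLXNC1 to 6.77 for REG3G.

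At the other end stood transporters and enzymes of the proximal tubule, together with single genes of other cells. SLC22A6, the organic anion transporter that takes up drugs from blood, had 543 counts in the untransplanted kidney and none in the graft, at least 148-fold lower. INMT, an indole and thioether methyltransferase, had 1112 and 2 counts, a log2 ratio of -8.51 (-11.88 to -6.97). SLC5A12, a sodium-coupled lactate transporter, had 15005 and 141 counts (-6.44, -6.69 to -6.20). In these bulk samples fewer cells of a type and less RNA per cell cannot be told apart. GATM, the first enzyme of creatine synthesis, had 6889 and 56 counts. The cytochrome P450 genes CYP2A19 and CYP2D25 had 1315 and 6 and 1312 and 19. The medium-chain acyl-CoA synthetase genes ACSM2B and ACSM4 had 21656 and 494 and 2254 and 41. SLC12A3, the thiazide-sensitive cotransporter of the distal convoluted tubule, had 3094 and 23. All of these are products of tubule cells. CREB3L3, a transcription factor of lipid metabolism, had 271 counts and none, at least 73.9-fold lower, and the thyroxine carrier TTR 215 and none, at least 58.6-fold lower. RGS1, a G protein regulator of leukocytes, had 304 and none, at least 82.9-fold lower. C1QC, a C1q chain made by macrophages, had 158 and none, at least 43.1-fold lower. The chemokine gene CCL16 had 1170 and 18. MT1D, a metallothionein gene, had 16075 and 209, and the overlapping locus LOC110260926 almost the same counts (16086 and 215), so their reads may be the same.

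**Figure D2:**
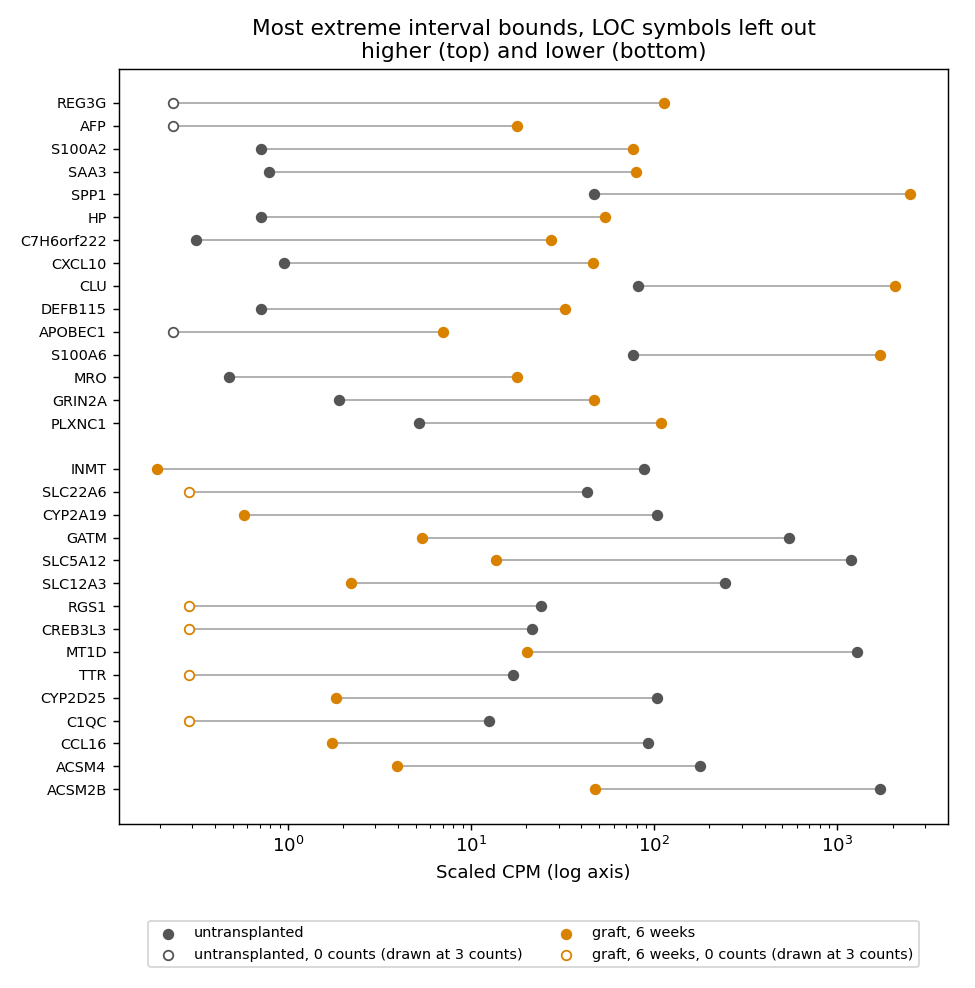
Scaled CPM (log axis) of the 15 genes with the highest lower interval bound and the 15 with the lowest upper bound, provisional LOC symbols left out, in the untransplanted kidney (grey) and the graft (orange); open circles are 0 counts drawn at the 3-count floor. REG3G, AFP and APOBEC1 had no count in the untransplanted kidney, and SLC22A6, RGS1, CREB3L3, TTR and C1QC none in the graft.

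Ranked by the difference in scaled CPM rather than by fold, abundant loci stood first. LOC102163816, a long noncoding RNA locus (chromosome 2, 6749941 to 6794116), had 165430 counts in the untransplanted kidney and 459371 in the graft, 1.25% and 4.44% of the library. This is the largest gain of any locus, in scaled CPM. Next in rank were ribosomal RNA loci, such as LOC102158401 at 437734 and 540848 counts (log2 ratio 0.6), which was not called. Of the genes neighbouring LOC102163816, FRMD8 had 117 and 67 counts, and the noncoding LOC100513133 had 7122 and 1907. TEX14, a gene of germ cell bridges (chromosome 12, 34815472 to 34975901), had 3326 and 23597 counts, a log2 ratio of 3.12 (3.06 to 3.17), while its downstream neighbour RAD51C had 30 and 34. Counts on a locus do not show which transcript they come from. The largest losses in scaled CPM were of COX2, ATP6 and COX3 of the mitochondrial genome, with log2 ratios of -0.69, -0.45 and -0.56, which stayed under 2-fold. Among nuclear genes they included GPX3, the plasma glutathione peroxidase made in the proximal tubule (73112 and 12347 counts), PHYH, the peroxisomal phytanoyl-CoA hydroxylase (37957 and 2606), FTL, ferritin light chain (66146 and 28590), and PCK1 (31480 and 2834).

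Proximal tubule genes were mostly lower. Of 43 described, 36 were called lower and 1 higher, with a median log2 ratio of -2.34, against 16.8% called lower over all genes. The markers together had 300587 counts in the untransplanted kidney and 57429 in the graft. LRP2, the endocytic receptor megalin, had 20999 and 831 counts (-4.37), and its partner CUBN, cubilin, 11879 and 3981 (-1.29). Both were named after their values were seen. MIOX, the kidney's inositol oxygenase, had 5350 and 202 (-4.43). The receptors of protein uptake thus differed in size though not in direction. The 1 marker called higher was SLC2A2, the basolateral glucose transporter GLUT2, with 206 and 770 counts (2.19). The glucose carrier SLC5A1 (0.11) and the amino acid carrier SLC6A19 (0.58), also named after their values were seen, were not called. By symbol family, 8 of 14 SLC22 organic ion transporters and 5 of 10 SLC5 sodium-coupled transporters were called lower, with 1 of each called higher. Symbol families named here and below were picked for their share of calls, so their counts add no separate support to a list. SLC22A8 had 9337 and 1258 counts, SLC22A12, the urate transporter, 793 and 111, and SLC5A2, the target of gliflozin drugs, 2051 and 166. Over all 281 solute carriers 81 were called lower and 45 higher (median -0.25). The riboflavin transporter SLC52A3 had 180 and 3 counts.

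The metabolic enzymes of the same cells went with them. Of 11 gluconeogenesis genes 8 were called lower and none higher (median -1.44). G6PC, which releases free glucose, had 842 and 38 counts, FBP1 11040 and 799, PCK1 31480 and 2834, and its mitochondrial form PCK2 3229 and 313. All 4 genes were at least 8-fold lower. Of 41 genes of amino acid breakdown 28 were called lower and 2 higher (median -1.75). BHMT and BHMT2, which pass methyl groups to homocysteine, had 1761 and 87 and 7828 and 676 counts, and HGD of tyrosine breakdown 826 and 71. The 2 called higher were low in both kidneys: HPD (18 and 67) and GLDC (14 and 48). Detoxifying enzymes were lower too, with 14 of 25 cytochrome P450 genes (median -1.38) and 13 of 25 aldehyde and aldo-keto enzymes (median -1.16) called lower and 2 of each higher. ALDH8A1 had 3950 and 237 counts, ALDH1B1 3535 and 232, and AKR1C1 5858 and 373. Of 13 conjugating transferases 7 were called lower and 2 higher (median -1.16), with GSTZ1 at 830 and 77 and GSTM3 in the opposite direction at 38 and 115. Proximal tubule markers moved with these lists, and their part in them was not tested.

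Lists of mitochondrial genes had medians under 0, by a smaller amount. Over all genes 16.8% were called lower. Of 63 nuclear genes of oxidative phosphorylation 23 were called lower and none higher (median -0.81), of 77 mitochondrial ribosomal proteins 19 and 2 (median -0.67), and of 19 tricarboxylic acid cycle genes 8 and none (median -0.75). COX7A1, a muscle-type cytochrome oxidase subunit, had 1536 and 150 counts, and SDHC, a membrane anchor of succinate dehydrogenase, 11563 and 2152. Most other members were not called. The mitochondrial ribosomal proteins were mostly short genes: in the 2 shortest of 5 groups by gene span 15 of 54 were called lower, against 1408 of 5865 of all placed protein-coding genes of that span. By family, 5 of 10 genes with a TOMM symbol, of the outer membrane import machinery, were called lower. So were 5 of 11 COQ genes of ubiquinone synthesis and 11 of 21 NUDT hydrolases. The families in this paragraph were picked for their share called lower. COQ8A had 1537 and 227 counts, NUDT19 542 and 79 and TOMM40L 183 and 30. The ALDH family had 9 of 18 called lower and HSD steroid dehydrogenases 6 of 13, HSD17B4 of peroxisomes among them (5806 and 723). Of the 13 genes on the mitochondrial genome 1, ND6 (74886 and 30291, -1.02), was called lower, and ND3 was not called (146339 and 153654, 0.36). Cytosolic ribosomal proteins stayed close to no difference, with 1 of 82 called higher, 2 lower and a median of -0.14. The 2 were RPS27L (2776 and 952) and RPL3L (91 and 5). This median moves to 0.01 when libraries are scaled by their totals without ribosomal RNA and mitochondrial genes.

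Glycolysis stood out among the metabolic lists in the other direction. Of 23 genes 10 were called higher and none lower, with a median log2 ratio of 0.63. HK2, an inducible hexokinase, had 10 and 130 counts (3.93, 3.07 to 5.08). LDHA, which makes lactate, had 223 and 1191 (2.70, 2.50 to 2.92). The glucose transporters SLC2A1 and SLC2A3 had 232 and 793 and 116 and 347. PGK1, in the same pathway and named after its values were seen, had 1869 and 915 (-0.74) and was not called. Genes of the hypoxia response were less uniform, with 5 of 24 called higher and 2 lower (median 0.48). KDM3A, a histone demethylase, had 302 and 718 counts, PFKFB3 428 and 943, and the collagen hydroxylase P4HA2 922 and 251. VEGFA (493 and 469, 0.22), named after its values were seen, was not called. Of 24 antioxidant genes 8 were called higher and 2 lower (median 0.24). SRXN1, sulfiredoxin, had 454 and 2653 counts (2.84), the cystine carrier SLC7A11 18 and 78, malic enzyme ME1 48 and 157, and epoxide hydrolase EPHX1 4241 and 972.

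The keratin list and the small secreted and mucosal list had the highest medians, among lists written with earlier results of these data known. Of 23 small secreted and mucosal genes 15 were called higher and none lower (median 1.93). All symbols of the list together had 17021 and 95646 counts, 0.129% and 0.924% of the library. This list holds REG3G, S100A2, SPP1 and CLU from the extremes above, so its rank is no separate support. SPP1 and CLU alone had 25798 and 21240 of the graft counts. WFDC2, a secreted protease inhibitor family member, had 2615 and 17202, LCN2, neutrophil gelatinase-associated lipocalin, 19 and 255, and MUC4, a membrane mucin, 24 and 76. These 3 were named after their values were seen. The mucosal defence genes PIGR (2489 and 2157) and DEFB1 (3104 and 2024), named in the same way, were not called. Of 8 keratins 6 were called higher (median 2.08): KRT80 (5 and 66), KRT7 (88 and 860), KRT18 (122 and 443) and KRT8 (725 and 2498) were the 4 largest among those with at least 50 counts. The urothelial genes UPK2, PSCA and KRT5 had no count in either library and UPK3A, named after its values were seen, 31 and 19.

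Of 30 genes of tubular dedifferentiation and repair 15 were called higher and 1 lower (median 0.81). SOX9, a developmental transcription factor, had 5 and 101 counts (4.50, 3.36 to 6.28). DCDC2, a doublecortin domain gene of the cilium, had 1023 and 6912, and annexin ANXA1 119 and 589. The injury marker HAVCR1 had 5 and 1 counts, at which no difference was detectable. The 1 called lower was the cadherin CDH6 (1408 and 453). By family, 5 of 11 annexins, 4 of 8 beta and 5 of 12 alpha integrin subunits and 6 of 13 claudins were called higher. Called lower were none, 2, 1 and 2, in the same order. These families were picked for their share called higher. ITGB3 had 21 and 173 counts, ITGB6, the epithelial activator of TGF-beta, 91 and 328, and ITGA2, a collagen receptor subunit, 244 and 858. CLDN6, a fetal claudin, had 8 and 151, and CLDN7 55 and 193. CLDN2, the leaky claudin of the proximal tubule, had 3469 and 406. Among 44 matrix proteases and inhibitors 14 were called higher and 3 lower (median 0.62), with MMP7, matrilysin, at 104 and 1646 and ADAMDEC1 at 30 and 466.

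**Figure D3:**
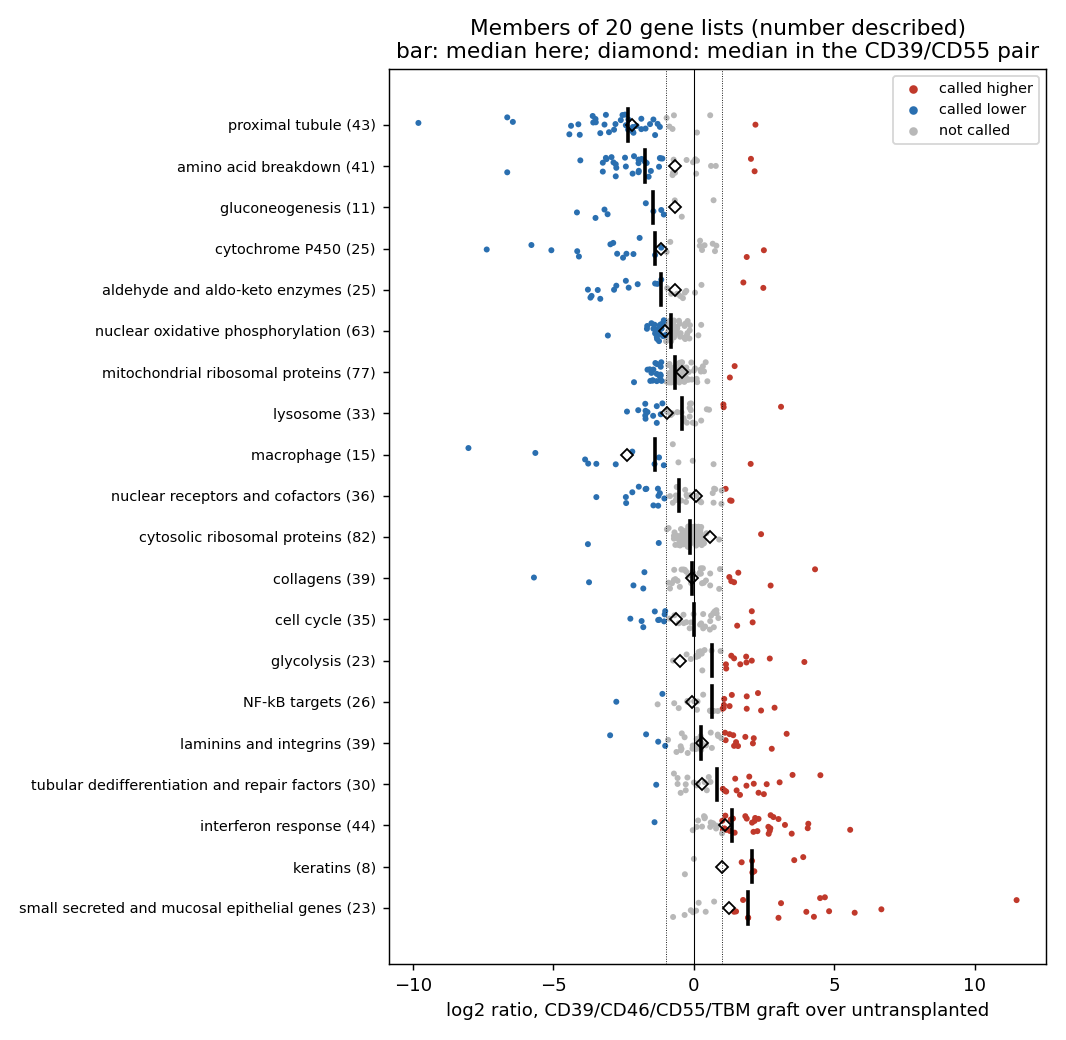
Each point is a gene of 1 of 20 lists, placed by its log2 ratio of graft over untransplanted kidney (log2 scale; dotted lines mark 2-fold), red when called higher and blue when called lower; the bar is the list's median and the diamond its median in the CD39/CD55 pair. Medians run from -2.34 for proximal tubule genes to 2.08 for keratins, and glycolysis has a bar at 0.63 and a diamond at -0.49.

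Of 16 genes associated with senescence 10 were called higher and 1 lower (median 1.63). Urokinase PLAU had 19 and 92 counts and IGFBP5 5310 and 856. Because IGFBP5 was so abundant, the summed counts of the list were 11430 and 7740, against the direction of its median. Cell cycle genes had a median of -0.01, with 3 of 35 called higher and 9 lower. AURKA, a mitotic kinase, had 14 and 50 counts, TYMS of thymidylate synthesis 808 and 138, and cyclin CCND1 1521 and 356. MKI67, a proliferation marker named after its values were seen, had 18 and 26. Of 28 TGF-beta and BMP genes 5 were called higher and 8 lower, LTBP1 (627 and 2149) and GREM1 (156 and 42) among them. Over all genes 16.4% were called higher and 16.8% lower, and the share of TGF-beta and BMP genes called higher was near this. Of 33 Wnt and Notch genes 1 was called higher and 7 lower, with WNT5A at 129 and 12.

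Interferon response genes were called higher in 29 of 44 cases and lower in 1 (median 1.35), against 16.4% called higher over all genes. CXCL10 (12 and 481), IFI44 (11 and 158), ISG15 (13 and 182) and CMPK2 (6 and 59) had the largest ratios among those with at least 50 counts. ISG15 is a ubiquitin-like modifier and CMPK2 a nucleotide kinase. The gamma-interferon chemokine CXCL9 had 5 counts in each library. Immunoproteasome subunits PSMB8 (54 and 121), PSMB9 (67 and 122) and PSMB10 (153 and 351) and the activator PSME4 (343 and 800) were the 4 of 48 proteasome genes called higher. Of 10 PARP genes, a family picked for its share called higher, 5 were called higher and 2 lower. PARP14 had 101 and 294 counts and PARP12 60 and 200, both known interferon targets, and PARP1 of DNA repair 477 and 110.

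Of 26 NF-kB targets 11 were called higher and 2 lower (median 0.65), against 16.4% and 16.8% over all genes. IRF1 had 54 and 326 counts (2.87), NFKBIZ, a nuclear cofactor, 153 and 656, and the adhesion molecule ICAM1 142 and 567. CD83, a dendritic cell marker, had 95 and 11. In the TNF receptor family, picked for its share called higher, 5 of 11 were called higher and 1 lower. TNFRSF12A, the TWEAK receptor, was at 14 and 163, TNFRSF1B at 94 and 718 and TNFRSF17, the plasma cell receptor BCMA, at 60 and 14. Chemokines and interleukins went both ways, with 11 of 33 called higher and 10 lower (median -0.14). The homeostatic cytokine IL7 had 34 and 243 counts and CXCL16 470 and 2104.

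Complement and coagulation genes were called higher in 18 of 44 cases and lower in 9 (median 0.49), against 16.4% and 16.8% over all genes. C3, the central component, had 101 and 1343 counts (4.02), fibrinogen chains FGG 26 and 422 and FGA 1 and 63. For FGA the log2 ratio of 5.69 had an interval of 3.74 to 11.59. PROC, protein C, had 380 and 14, and SERPINC1, antithrombin, 134 and 10. The recipient's liver is not in these libraries, and among 9 described hepatocyte genes 5 were called higher and 2 lower. ALB, albumin, had 5 and 2 counts, SERPINA1 and APOA2 none in either library, and TF, transferrin, 1992 and 165.

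Other nephron segments differed less than the proximal tubule. The shares over all genes were 16.4% called higher and 16.8% lower. In the thick ascending limb 3 of 9 markers were called lower and 1 higher (median -0.69). UMOD was at 15092 and 2214, EGF at 2021 and 348, CLDN19 at 376 and 98 and CLDN16, its partner in the magnesium pore, at 78 and 215. In the distal convoluted tubule 3 of 9 were called lower and 1 higher. There SLC12A3 was 108-fold lower while TRPV5, a calcium channel, had 475 and 889 counts and CALB1 180 and 36. Principal cell markers were mixed, with SCNN1A at 72 and 146 and SCNN1G, another subunit of the same sodium channel, at 354 and 104. Among 13 intercalated cell markers 3 were called higher and 2 lower (median 0.40). FOXI1, the transcription factor of these cells, had 257 and 566 counts, SLC4A9 38 and 122, and SLC26A4, pendrin, 526 and 172. Of 12 podocyte genes 5 were called lower and none higher (median -0.74). NPHS1, nephrin, had 116 and 19 counts and TCF21 231 and 31.

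Vessel and stroma markers had medians of -0.49 for endothelium (2 of 17 called higher, 4 lower), -0.29 for smooth muscle and pericytes (1 of 12 and 3) and -0.67 for fibroblasts (3 of 11 and 4). Over all genes 16.4% were called higher and 16.8% lower. TEK, the angiopoietin receptor, had 245 and 51 counts, EMCN 787 and 272 and EHD3 74 and 11, whereas CDH5, named after its values were seen, had 127 and 130. The 2 endothelial markers called higher were the adhesion molecules ICAM1 and SELE (1 and 28, log2 ratio 4.54). ACTA2, smooth muscle actin, had 965 and 302. COL1A1 had 1844 and 340 counts while POSTN, periostin, had 20 and 63 and complement C7, made by stromal cells, 632 and 2299. Over 39 collagen genes 6 were called higher and 5 lower (median -0.05). COL17A1, a collagen of epithelial anchoring, had 10 and 170 counts, COL8A1 67 and 365 and COL15A1 542 and 33.

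Pig leukocyte markers were low. Of 15 macrophage genes 10 were called lower and 1 higher (median -1.40), and they summed to 1975 and 629 counts. C1QB had 152 and 2 counts, TYROBP 116 and 6 and C1QA 121 and 14. The 1 called higher was CD14, with 12 and 41. T and NK cell markers summed to 96 and 32 counts and only 3 of the 13 in the files were described. All 3 were called lower, with CD3E at 5 in each library. Markers this low can pass the minimum of 10 counts mainly through the library where they are high. Their calls thus follow in part from the count rule. JCHAIN, a plasma cell gene, had 45 and 3. HBB, beta globin, had 2114 and 46 counts, and red cell markers summed to 3031 and 411. The sources used here do not say whether counts include reads of the recipient, and which cells the low leukocyte and red cell counts come from was not tested.

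Stress, timing and organelle genes completed the lists. Of 18 clock genes 3 were called higher and 5 lower (median -0.08). ARNTL, the positive arm of the clock, had 38 and 456 counts and its partner NPAS2 224 and 634. DBP had 350 and 10 and PER2 413 and 85, both driven by that arm. The sources used here do not say at which hour each kidney was taken. Of 36 nuclear receptors and cofactors 13 were called lower and 3 higher (median -0.53). The orphan receptors NR4A3 and NR4A2 had 414 and 30 and 2165 and 333, and the xenobiotic receptors NR1I2 and NR1I3 304 and 46 and 187 and 33. Among 39 heat shock genes 10 were called lower and 6 higher (median -0.46), with mitochondrial HSPD1 at 4288 and 760 and DNAJA1 at 2644 and 473. Lysosomal genes were called lower in 12 of 33 cases and higher in 3 (median -0.44). GPNMB, a lysosomal membrane glycoprotein, had 731 and 5120, opposite to acid lipase LIPA at 2262 and 557. Targets of ATF4 were divided, with 8 of 26 called in each direction. NUPR1, a stress nuclear protein, had 536 and 3372 and the serine synthesis gene PHGDH 831 and 123. Endoplasmic reticulum folding genes had none of 27 called higher and 2 lower, CALR (6278 and 2053) and XBP1 (853 and 270).

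Genes of the erythropoietin, renin and vitamin D list were more often called lower than higher. Of 21 genes 9 were called lower and 3 higher (median -0.79). KLK1, tissue kallikrein, had 2213 and 56 counts and the parathyroid hormone receptor PTH1R 3387 and 360. The phosphate carrier SLC34A1, also a proximal tubule marker, had 12828 and 876. The 3 called higher were EPO, erythropoietin, at 1 and 34 (4.81), FGFR1 at 198 and 799 and AGT at 12 and 32. Potassium channels included KCNMA1 at 70 and 639 and KCNJ15 at 5878 and 890, with 4 of 18 called higher and 3 lower. Genes close to no difference at over 1000 counts in both libraries included NEMF (1437 and 1175), TNS1 (1897 and 1550), FHOD3 (2907 and 2374) and CLINT1 (1268 and 1039), whose log2 ratios were 0 to 2 decimals. Housekeeping lists were under the background, with 3 of 51 splicing factors called higher and 2 lower and 2 of 51 translation initiation factors higher and 4 lower.

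Features of the genes that the lists did not use also moved with the ratio. Annotated protein-coding genes on chromosomes 1 to 18 and X were put in 5 groups of equal number by their span on the genome, introns included. In the shortest group, under 9.69 kb, 24.7% were called lower and 10.9% higher, with a median log2 ratio of -0.39. In the longest, over 97.0 kb, 6.89% were called lower and 23.8% higher, with a median of 0.42. The shares changed in order across the 5 groups for genes called lower, at 24.7%, 23.3%, 17.2%, 10.6% and 6.89%. In the CD39/CD55 pair the same groups had 22.1%, 19.2%, 14.7%, 9.89% and 7.29% called lower. The sources used here do not settle whether the kit counted 3′ ends or whole transcripts, which bears on how span enters a count. The part of gene span in any list's result was not tested. Among 33 lists with at least 5 described members at both ends, 21 had the higher median in the 2 longest groups and 12 in the 2 shortest, and 11 had medians of opposite sign. Proximal tubule genes had a median of -2.60 in the 2 shortest groups (17 genes) and -2.18 in the 2 longest (17 genes), and amino acid breakdown genes had -2.21 (14) and -1.75 (17). Other lists differed more between the ends. Aldehyde and aldo-keto enzymes had -2.76 (9) and -0.43 (8), podocyte genes -2.47 (4) and -0.42 (7), and cytochrome P450 genes -1.18 (12) and 0.38 (3). The podocyte and cytochrome P450 lists each had an end with under 5 members. Cytochrome P450 genes of the middle group were lower than either end, at -2.34 (10). Of the gluconeogenesis genes 8 were short, with a median of -1.57, and the 1 long gene was at 0.70. Interferon genes had 1.45 in the shortest (31) and 0.75 in the longest (10), and glycolysis genes 0.38 (9) and 1.33 (9). Nuclear oxidative phosphorylation genes were almost all short, 56 of 63, with a median of -0.85 against -0.34 for all genes of that span. Among genes with a mean under 20 counts 26.9% were called higher and 15.6% lower. Genes this low can pass the minimum of 10 counts only through the library where they are high. Their shares thus follow in part from the count rule. How far the same rule enters the next shares was not tested. Long noncoding RNAs were called in both directions more often than protein-coding genes, 24.7% higher and 18.6% lower against 15.1% and 16.5%. Among provisional LOC symbols 820 of 3534 were called higher and 697 lower. LOC100520832, a protein-coding locus beside REG3G, had 1 and 2464 counts, a log2 ratio of 10.97 (9.08 to 16.86), and it may share reads with near copies.

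**Figure D4:**
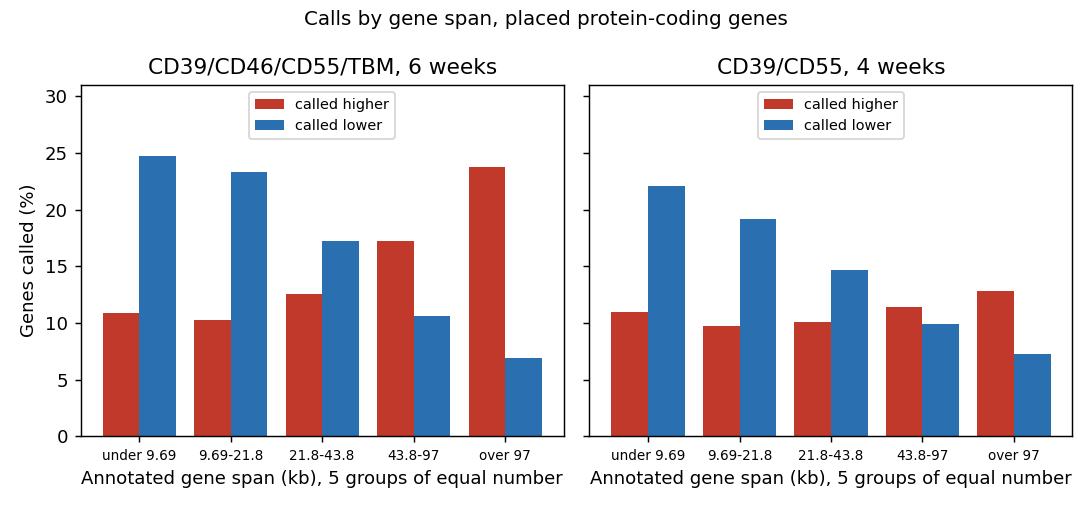
Percentage of placed protein-coding genes called higher (red) and lower (blue) in 5 groups of annotated gene span (kb), for the 6-week CD39/CD46/CD55/TBM pair on the left and the 4-week CD39/CD55 pair on the right. On the left the share called lower goes from 24.7% to 6.89% and the share called higher from 10.9% to 23.8% from the shortest to the longest group.

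The change was then set beside that of the CD39/CD55 pair, in which 2338 of 17417 genes were called higher (13.4%) and 2482 lower (14.3%). Both pairs are separate libraries, but genotype, weeks after transplantation, recipient and any batch cannot be told apart between them. Called higher in both were 1008 genes, 35.4% of those called here and 43.1% of those called there. Called lower in both were 1365, 46.6% and 55.0%. Opposite calls were rare, with 54 genes higher here and lower there and 67 the reverse. Across 16635 genes described in both, the log2 ratios had a Pearson r of 0.62 and a Spearman rho of 0.58, given as a description since genes are not replicates. For the 10438 genes with at least 100 counts in both, the SD of the log2 ratio was 1.15 here and 0.967 there, and 57.1% had the larger ratio here. The difference of the log2 ratios, judged by a 95% Wald interval for counting error and again a 2-fold limit, was called higher here for 1882 of 18168 genes (10.4%) and lower for 2087 (11.5%).

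Glycolysis held the largest share of such differences among lists of more than 20 genes. Of 25 genes 16 had a higher change here and 1 a lower one, with a median difference of 1.55. LDHA had 223 and 1191 counts here and 377 and 191 in CD39/CD55, a difference of 3.53 on the log2 scale. The list's median was 0.63 here and -0.49 there, where 3 of 25 genes were called higher and 9 lower. In the opposite sense, amino acid breakdown had 18 of 41 genes with a lower change here and 1 higher (median -0.74), aldehyde and aldo-keto enzymes 11 of 25 and none, and gluconeogenesis 5 of 11 and none. FBP1 had 9421 and 4975 counts in CD39/CD55 and PCK2 1507 and 2427, against the 11.3-fold and 8.42-fold lower values here. Cytosolic ribosomal proteins had 27 of 82 with a lower change here and none higher (median difference -0.77), having been at a median of 0.57 in CD39/CD55. Cell cycle genes had 14 of 36 higher and 1 lower. Their median was -0.01 here and -0.65 in CD39/CD55, where 1 of 35 was called higher and 12 lower. Interferon genes differed less in their medians, 1.35 and 1.12, with 11 of 45 higher here and 5 lower, and proximal tubule genes had medians of -2.34 and -2.20.

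Single genes with the most extreme differences came from several functions. HP had 9 and 554 counts here and 18 and 58 in CD39/CD55, a difference of 4.35 on the log2 scale. CREB3L3 had 271 and none here and 56 and 49 there, and INMT 1112 and 2 against 891 and 160. LOC102166944, a metallothionein-cluster locus on chromosome 6, had 3153 and 250 here and 36423 and 220 there (3.85), so both grafts ended near the same count from different starting levels. Differences of this kind can rest on the untransplanted side as much as on the graft. TEX14 (2180 and 3064 in CD39/CD55) and CLU (1314 and 5074) also had a higher change here, by 2.48 and 2.56, whereas MMP7 (76 and 1412) was not called (-0.09).

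**Figure D5:**
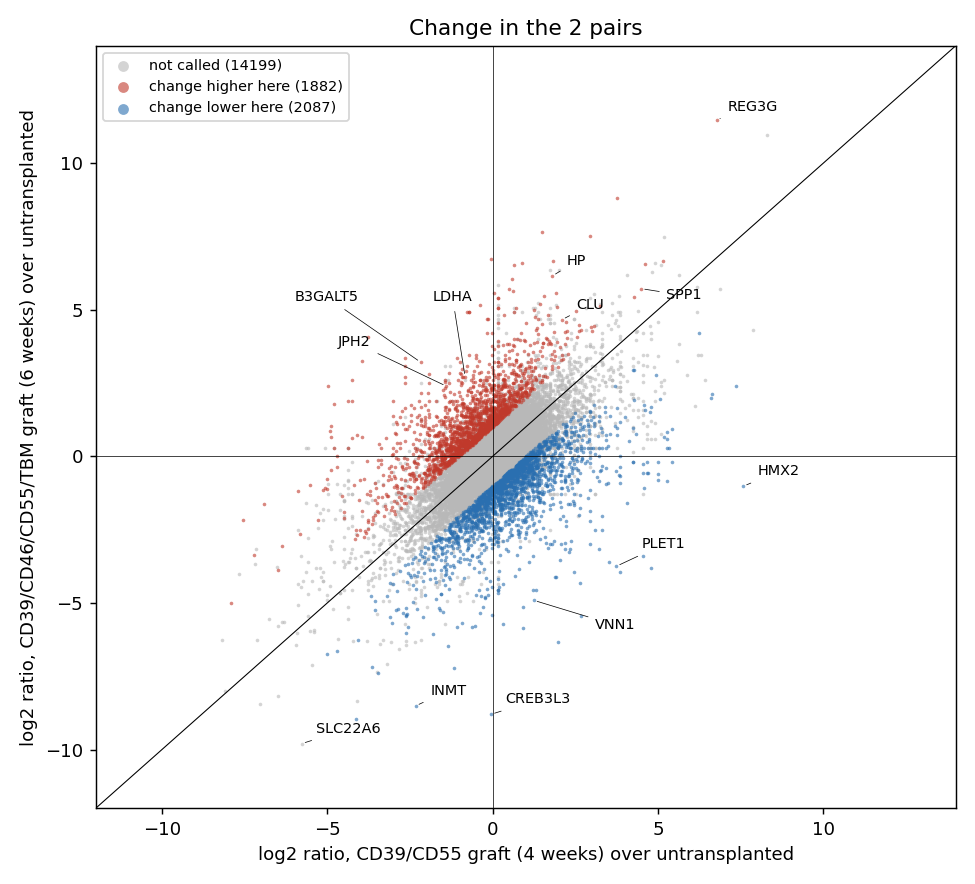
The log2 ratio of graft over untransplanted kidney in the CD39/CD55 pair (x, 4 weeks) and in the CD39/CD46/CD55/TBM pair (y, 6 weeks) for 18168 genes; the diagonal marks an equal change. Red points are the 1882 genes whose change was called higher here and blue points the 2087 called lower; PLET1, HMX2 and VNN1 lie in the quadrant higher there and lower here, and B3GALT5 and JPH2 in the opposite one.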

How the data were processed

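The deposited files hold raw counts per gene of 4 pig kidney libraries, 1 per group, as whole numbers to which the authors applied no normalization. Libraries were made from total RNA with a Lexogen Quant-Seq kit, per the labels' protocols. The submitters' processing notes list Bowtie2, bedtools and the build Sscrofa11.1. The sources used here give no versions, strand or treatment of shared or recipient reads, so overlapping, antisense and near-identical genes are uncertain. No molecular identifiers are mentioned.

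Lines of the 81 repeated symbols were summed. Genes with 10 counts in either library of a pair were kept and scaled by TMM over the 4 libraries (edgeR 4.0.16, R 4.3.3). The TMM factors were 0.957 and 1.00. The log2 ratio used a prior count of 0.5 and an exact conditional binomial 95% interval (Clopper-Pearson; scipy 1.17.1). A call required 2-fold and an interval excluding 1, which compares 2 libraries, not 2 conditions. A gene without counts was bounded at 3 counts. The calculation was tested on simulated data. Coordinates and spans are from RefSeq on the same build.

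Members and gene lists were chosen with earlier results of these data known. Genes named are the 15 most extreme interval bounds in each direction among symbols other than LOC, the 10 largest scaled CPM differences, 5 with no count on 1 side, up to 4 per list (at least 50 counts in either library) or symbol family, 5 near 0, 10 differences from CD39/CD55 in each direction and up to 3 LOC symbols, besides counts of 5 or fewer and genes said to be named after their values were seen. Symbol families were named for having the largest shares called in either direction among the 183 with at least 10 described members. Markers near 0 counts and chromosomal neighbours were also named. Promoter sequences were not used here, and a few named genes are not reported here.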

Additional observations from a re-analysis of the deposited data

Results flagged for a closer look

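Among the 20 genes with the most extreme difference between the 2 pairs, 9 were called in opposite directions in them. Each pair is 1 library a side, so the difference was not tested between animals. HMX2, a homeobox gene, had 70 and 28 counts here and 0 and 86 in CD39/CD55, a difference of -8.60 in log2 ratios. PLET1, a placenta-expressed epithelial gene, had 270 and 16 counts against 4 and 54 (-7.49). VNN1, a pantetheinase, had 128 and 3 against 40 and 86 (-6.15). The call of HMX2 here rests on the scaling: its log2 ratio of -1.02 was -0.95 under total counts, -0.87 under totals without ribosomal RNA and mitochondrial genes and -0.97 with a prior count of 2, all short of 2-fold. In all 3 genes the untransplanted kidneys differed as well. B3GALT5, a galactosyltransferase of glycan chains, had 3 and 26 counts against 22 and 4 (5.38), and JPH2, a junctional membrane protein of muscle, 213 and 917 against 68 and 23 (3.79). The other 4 were provisional loci, LOC102159287 (-8.33), LOC106510398 (-6.95), LOC106507634 (-5.63) and LOC100736865 (4.17). LOC102159287 had no count in the graft here, and its interval was -12.5 to -4.17. LOC106507634, at -1.06 here, likewise lost its call under those 3 alternatives.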

How the results depend on the processing

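No paired analysis was possible because each group is 1 library and the labels give no replicate numbers; for the same reason no replicate could be left out. Genes called higher numbered 1802 at a minimum of 50 counts and 846 at 4-fold, where 1070 were called lower; under the other alternatives both counts, and those of the differences from CD39/CD55, stayed within 1.5 times. Scaling by totals without ribosomal RNA and mitochondrial genes moved every log2 ratio by 0.14 and the share of calls that were higher from 49.3% to 57.6%. Of 349 named genes, 317 were called; none reversed, 8 lost their call and 5 gained one under some scaling or a prior count of 2. ND6, HMX2, FDPS, MVD, FZD4, LOC106507634, ATP6V1B1 and SLC25A37 lost it. Of 429 list medians under alternatives, 13 moved beyond counting error. At a minimum of 50 counts these were principal cell (0.30), red cell (-3.14), urothelium (2.64), complement and coagulation (1.04) and cytochrome P450 (-2.04). Under totals without ribosomal RNA and mitochondrial genes they were tricarboxylic acid cycle (-0.61), cytosolic ribosomal proteins (0.01), nuclear oxidative phosphorylation (-0.67), mitochondrially encoded (-0.24), vacuolar proton pump (0.09) and histones (-0.28). Under total counts they were cytosolic ribosomal proteins (-0.07) and mitochondrially encoded (-0.32). The cause was not tested. Medians of 12 lists changed sign under an alternative. All were near 0 apart from principal cell (-0.36) and ATF4 targets (0.23), the latter -0.12 at a minimum of 50 counts. The search of promoter motifs was not run. Depth limits genes near the 3-count floor.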

Other observations

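Symbol families were searched without regard to the lists. Of 183 families with at least 10 described members, holding 4359 genes, 3 had no member called in either direction. Among the families with the highest share called higher were DOCK exchange factors, which activate Rac and Cdc42, with 4 of 11 and none lower. Over all genes 16.4% were called higher and 16.8% lower, and in the longest group by gene span 23.8% and 6.89%. The part of gene span in this family was not tested. DOCK5 had 343 and 680 counts, DOCK1 504 and 934 and DOCK4 460 and 784. ABCC transporters had 4 of 11 called higher and 2 lower, with ABCC9, a potassium channel partner, at 147 and 721 and ABCC2, the apical efflux pump of the proximal tubule, at 2722 and 759. CLEC lectins had 6 of 11 called lower and 1 higher, among them CLEC18C at 3967 and 347 and CLEC2D at 1327 and 210. Of 239 zinc finger genes 24 were called higher and 28 lower (median 0.08), shares of calls under those of all genes.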
